A study of Rattus norvegicus with 16 samples.

Results

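The miRNAs described here are markers of microglia, the resident macrophages of the brain, and of blood leukocytes. They were listed by name, with no threshold on measured values: rno-miR-142-3p, rno-miR-142-5p, rno-miR-150-5p, rno-miR-223-3p, rno-miR-146a-5p, rno-miR-155-5p and rno-miR-21-5p, where rno stands for the rat and is left out from here on. Of the 7 named, 6 of the 722 listed miRNAs were analysed, and all 6 passed the filter on low counts. miR-155-5p was not analysed here. The small RNA libraries came from amygdala and dorsal raphe tissue of high responder and low responder rats. There were 4 libraries each of high responder amygdala, low responder amygdala, high responder dorsal raphe and low responder dorsal raphe, 16 in all. All rats were 60 days old, and the labels name no treatment, sex or genotype beyond the line. High and low responders are rat lines bred for strong or weak locomotor activity in an unfamiliar setting. The amygdala is a forebrain region of emotional learning, and the dorsal raphe is the main serotonin nucleus of the midbrain. A region's library holds all its cells, so the markers read immune cells only as a part of whole tissue.

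A miRNA is cut from a hairpin precursor and guides silencing of mRNAs that pair with its seed, bases 2 to 8 from the 5′ end. miR-142 is made in haematopoietic cells, those of the blood-forming lineage, microglia among them, and both arms of its hairpin give a mature miRNA. miR-150-5p is abundant in mature lymphocytes, where in mice it restrains Myb, and miR-223-3p is abundant in neutrophils and other myeloid cells. miR-146a-5p is induced by NF-κB and restrains the signalling adaptors Irak1 and Traf6, whereas miR-21-5p is made in many cell types, glia and vessels included, and is induced in inflammation. Of these markers only the miR-142 arms and miR-223-3p are largely limited to haematopoietic cells.

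The mature sequences are shown because the seeds set these members apart and because 1 of them has a near-identical relative. They are RefSeq's, with seeds in capitals, and hairpin positions are on build GRCr8. RefSeq's table matched 5 of the 6 members analysed.
miR-142-3p: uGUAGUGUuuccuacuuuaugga
miR-142-5p: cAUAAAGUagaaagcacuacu
miR-223-3p: uGUCAGUUugucaaauacccc
miR-146a-5p: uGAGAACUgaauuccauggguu
miR-21-5p: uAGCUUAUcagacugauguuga
miR-146b-5p: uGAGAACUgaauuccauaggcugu
No 2 of these 5 members shared a seed. Among the other miRNAs of the files with a RefSeq sequence, only miR-146b-5p, which is no member, had the seed of 1 of these 5, that of miR-146a-5p. miR-146a-5p and miR-146b-5p had their first 17 bases in common and differed by G18A and U21C, counted from the 5′ end with the base of miR-146a-5p first. Reads that the submitters' counting could not tell apart may be split between these miRNAs, so the counts of miR-146a-5p are uncertain to that extent.

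Both miR-142 miRNAs come from a single hairpin at chr10:73055104-73055190 on the plus strand, which is printed because the balance of its arms is measured below. Capitals mark miR-142-5p, the first arm, and miR-142-3p, the second.
Mir142: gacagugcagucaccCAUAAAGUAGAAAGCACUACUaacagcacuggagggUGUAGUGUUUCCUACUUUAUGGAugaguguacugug
The other hairpins lie apart from it: Mir21 at chr10:71902600-71902691 on the minus strand, Mir146a at chr10:28349996-28350090 on the minus strand and Mir223 at chrX:65151383-65151492 on the plus strand.

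Library totals ran from 1741167 to 8134915 counts, and 3 counts, the floor used here, were worth 0.369 to 1.72 CPM (counts scaled to a library of 1e6). Replicate 4 of low responder dorsal raphe and replicate 1 of high responder amygdala stood farthest from their groups over all miRNAs tested, with root mean square deviations of 1.03 and 0.968 on the log2 scale, against 0.285 to 0.880 in the other libraries. They were also the shallowest library of each group, with 2096188 and 1741167 counts, and results that rest on them are given with and without them. The labels do not say whether the 4 libraries of a group are 4 animals, so a p-value here speaks only of the spread between the libraries, which may be technical. The 6 neuronal miRNAs, a sum led by miR-128-3p, came to 65034 to 132869 CPM in amygdala and 26972 to 58087 CPM in dorsal raphe. No miRNA of the lists used here defines either region, so the region labels were not checked. The CPM of the floor rest on library totals alone. All levels are CPM with edgeR's TMM scaling, which sets libraries on a common scale from the bulk of their miRNAs. In low responder dorsal raphe replicate 4, with a TMM factor of 0.596, 3 counts are worth more on that scale than the 1.43 CPM by its total.

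The 6 miRNAs spanned a wide range of abundance. By mean CPM over all libraries, miR-21-5p ranked 19th of 722, miR-150-5p 107th, miR-146a-5p 185th, miR-142-5p 236th, miR-142-3p 256th and miR-223-3p 460th. miR-21-5p alone made up 92.2% of their summed CPM, so a sum over the 6 is close to miR-21-5p. The 5 with a RefSeq sequence are 21 to 23 bases long, so ranking per base would hardly differ. Within a miRNA, the highest library exceeded the lowest 5.11 times for miR-142-3p, 4.97 times for miR-150-5p, 4.62 times for miR-21-5p and 3.84 times for miR-142-5p, against 2.55 times for miR-146a-5p and 2.17 times for miR-223-3p.

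**Figure D1:**
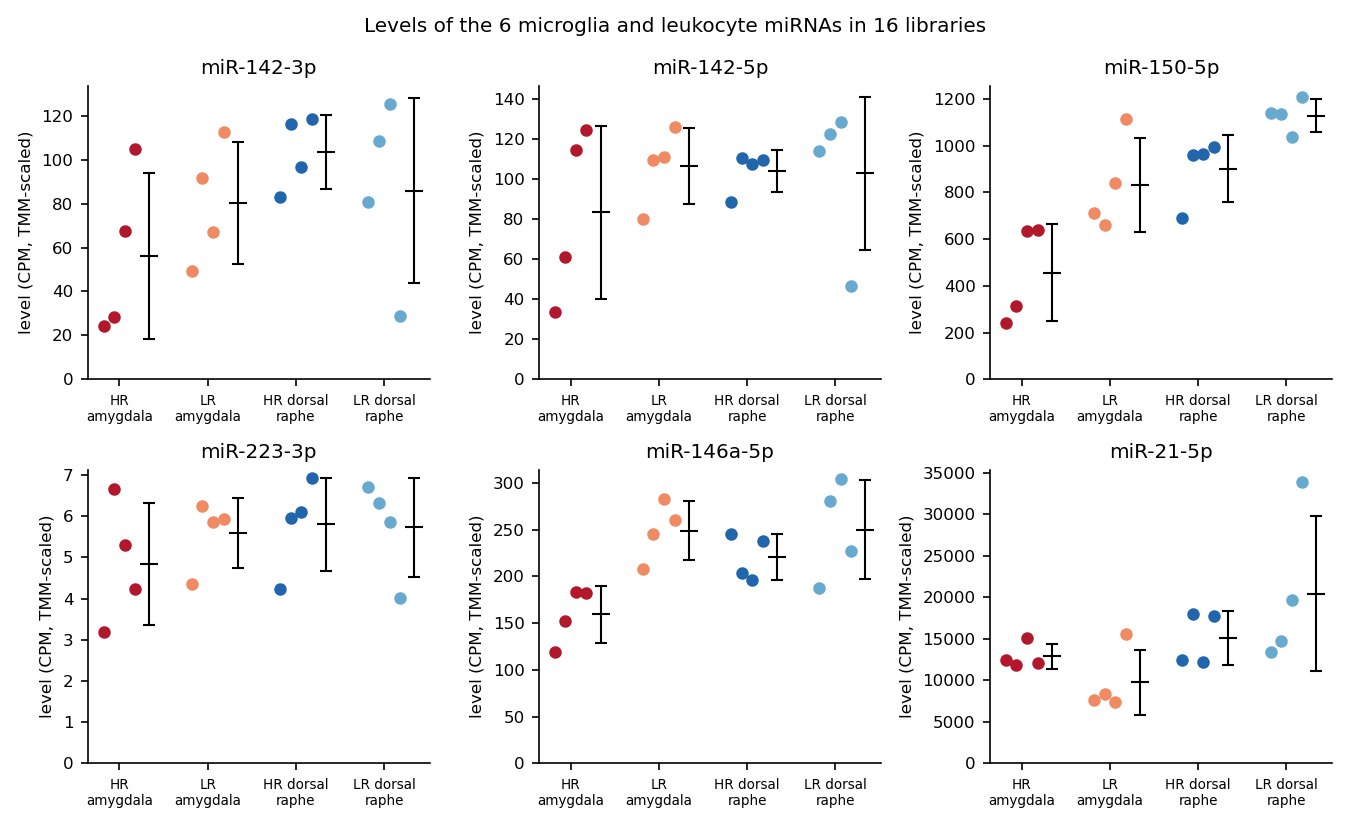
Level of each miRNA (CPM with TMM scaling, linear axes from 0) in the 4 libraries of each group, in replicate order, with the group mean and SD as bars; HR is high responder and LR low responder. The 4 high responder amygdala libraries of miR-150-5p (243 to 637 CPM) and of miR-146a-5p (119 to 183 CPM) sit below all 4 libraries of low responder amygdala and of high responder dorsal raphe.

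In amygdala, 2 of the 6 members, miR-150-5p and miR-21-5p, were lower than in dorsal raphe when the lines were averaged, and none was higher (edgeR quasi-likelihood test, Benjamini-Hochberg adjusted p under 0.05 over 639 miRNAs). Of all miRNAs tested, 24.3% were called in this comparison and 14.9% were called lower. All 6 members had negative log2 fold changes, except that miR-142-5p had 0.06 and miR-223-3p 0.04 without the 2 libraries that stood apart, and up to 0.11 and 0.03 with 1 library left out. The median was -0.36 against -0.08 for all miRNAs tested. Within high responders only miR-150-5p was called, lower in amygdala, where 13.1% of all miRNAs were called and 6.57% were called lower. Within low responders only miR-21-5p was called, lower in amygdala, where 14.1% of all miRNAs were called and 10.5% were called lower. In bulk tissue, fewer cells of a type and less of a miRNA per cell cannot be told apart.

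Between the lines no member was called in either region, and no miRNA of the 639 was (0% by edgeR, in each region and for the interaction). In amygdala, 10.2% of miRNAs had an unadjusted p under 0.05 by edgeR, and DESeq2 called 19 miRNAs (2.97%), miR-146a-5p among them. In dorsal raphe the share with an unadjusted p under 0.05 was 11%, and DESeq2 called none. The interaction, which is the line difference in amygdala over that in dorsal raphe, had 12.7% at an unadjusted p under 0.05, and DESeq2 called 22 miRNAs (3.44%), none of them a member. Median log2 fold changes of the 6 members, high over low responders, were -0.43 in amygdala (0.07 for all miRNAs tested) and -0.09 in dorsal raphe (-0.06 for all miRNAs tested).

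**Figure D2:**
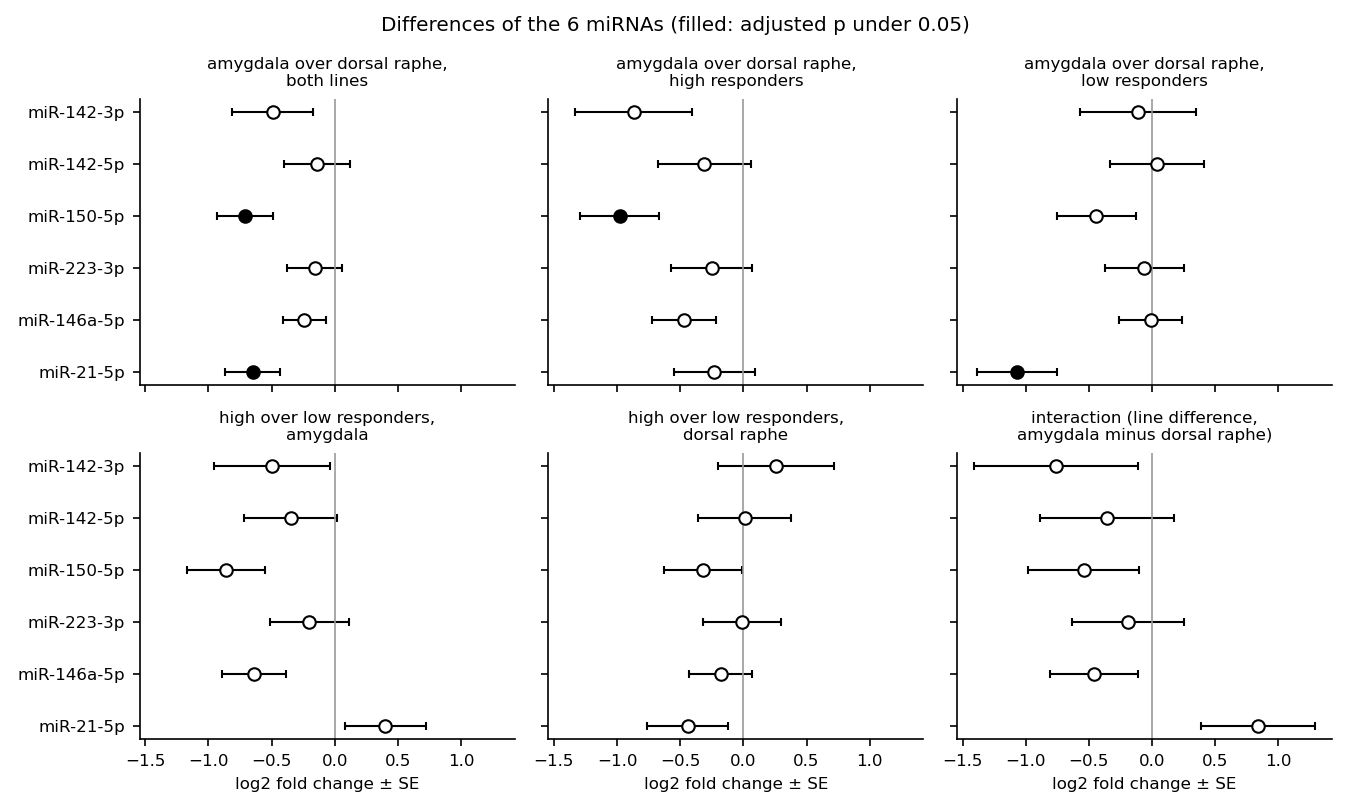
Log2 fold change with its standard error (edgeR, 16 libraries) of each of the 6 miRNAs in each comparison; filled points have an adjusted p under 0.05. The filled points are miR-150-5p (-0.71) and miR-21-5p (-0.65) averaged over the lines, miR-150-5p in high responders (-0.98) and miR-21-5p in low responders (-1.07).

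miR-150-5p, abundant in lymphocytes but not limited to haematopoietic cells, was lowest in high responder amygdala. Its mean over all libraries was 830 CPM, against 81.5 CPM for miR-142-3p and 99.3 CPM for miR-142-5p. The part of lymphocytes in its level was not tested. miR-150-5p had 243, 312, 634 and 637 CPM in high responder amygdala, against 689, 961, 966 and 993 CPM in high responder dorsal raphe. In low responders it had 714, 659, 838 and 1113 CPM in amygdala, against 1138, 1135, 1035 and 1207 CPM in dorsal raphe. The high responder regions did not overlap, as was so for 23.5% of all miRNAs tested, and the low responder regions met at the highest amygdala library.

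The region difference of miR-150-5p averaged over the lines was -0.71 ± 0.22 (log2, SE; 1.64 times lower in amygdala; adjusted p = 0.023, edgeR). It was -0.98 ± 0.31 in high responders (adjusted p = 0.045) and -0.44 ± 0.31 in low responders (adjusted p = 0.361). Without the filter on low counts the high responder value was -1.0 and not called (adjusted p = 0.0668). The interaction, which tests whether these 2 region differences differ, was -0.54 ± 0.44 (adjusted p = 0.703, edgeR). The median of all miRNAs tested also differed between settings, and the part of scaling in this was not tested. Relative to that median the averaged value of miR-150-5p was -0.63. It was -0.63 again without replicate 4 of low responder dorsal raphe and replicate 1 of high responder amygdala, where the fitted value was -0.41 (adjusted p = 0.0721, edgeR). Over 39 settings the value relative to that median stayed between -0.78 and -0.56.

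The call itself was not kept in every fit with 1 library left out. Whether the missing library or the redone scaling lost it was not tested. With 1 library left out and scaling redone, the averaged difference of miR-150-5p was called in 5 of 16 fits, those without low responder dorsal raphe replicate 4, low responder amygdala replicate 4, high responder dorsal raphe replicate 1 or high responder amygdala replicate 3 or 4. Without any of the other 11 it was not called, with adjusted p up to 0.102 (edgeR) and log2 fold changes between -0.69 and -0.48. With the scaling of all 16 libraries kept, which was chosen after seeing the data, it was called in 13 of 16 fits. In high responders the difference was called in the absence of the same 5 libraries and not otherwise, between -1.19 and -0.74.

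**Figure D3:**
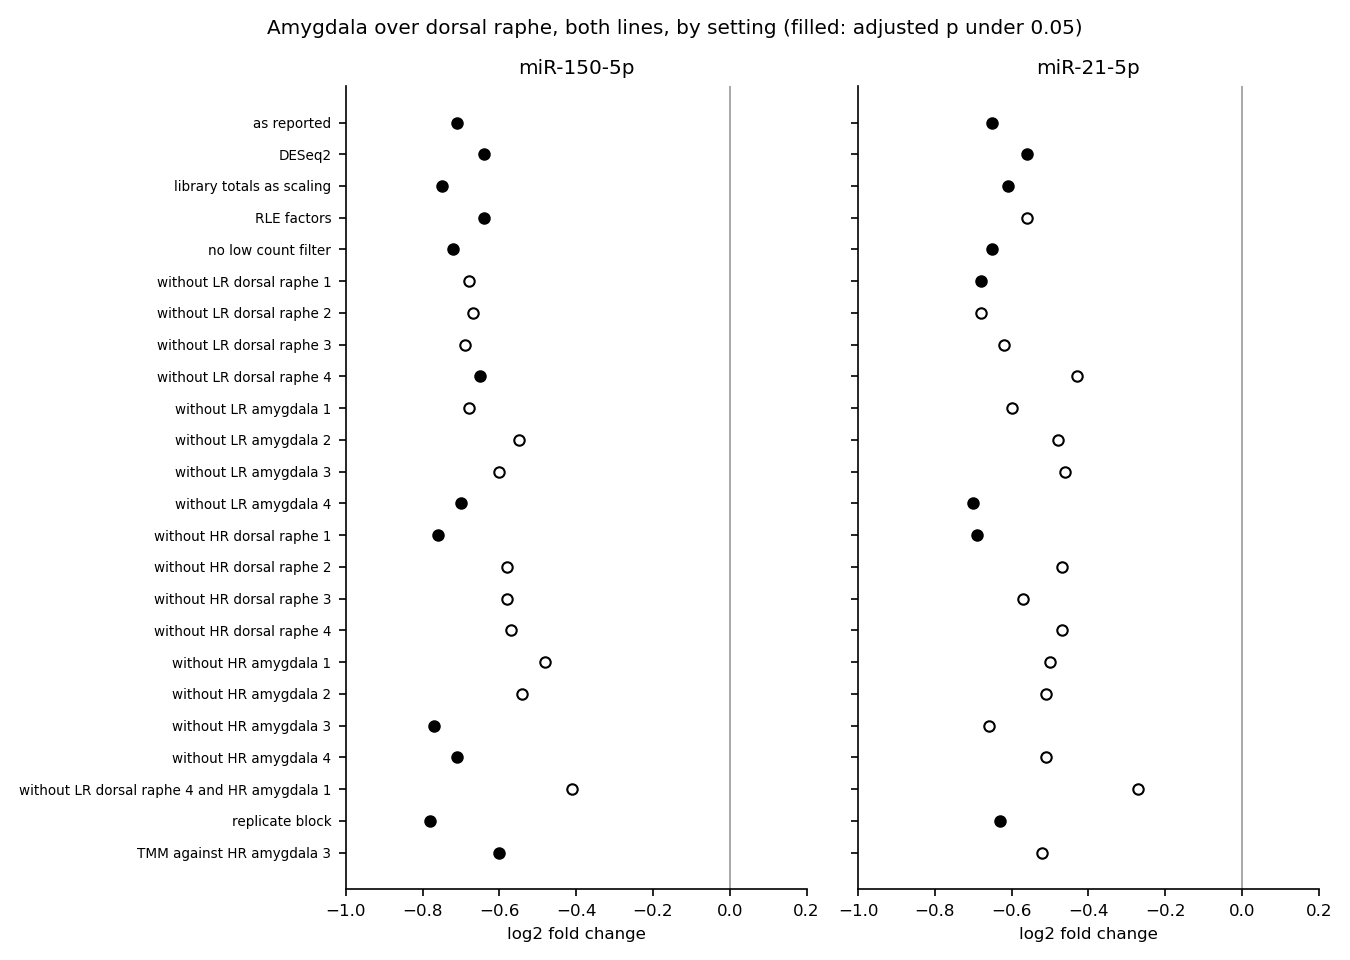
Log2 fold change of amygdala over dorsal raphe, as the mean of both lines, of miR-150-5p (left) and miR-21-5p (right) as reported and under each other setting but the fits with scaling held, with filled points where the adjusted p was under 0.05. Every plotted point lies below 0 for both miRNAs, from -0.78 to -0.41 for miR-150-5p and from -0.70 to -0.27 for miR-21-5p, and most points for leaving out 1 library with scaling redone are open.

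Between the lines, the amygdala groups of miR-150-5p did not overlap (243 to 637 CPM in high responders, 659 to 1113 CPM in low responders). The fitted difference was -0.86 ± 0.31 (adjusted p = 0.328, edgeR). The dorsal raphe groups did not overlap either (689 to 993 CPM in high responders, 1035 to 1207 CPM in low responders), with -0.32 ± 0.31 (adjusted p = 0.911, edgeR). Such groups without overlap made up 8.76% of all miRNAs tested in amygdala and 4.23% in dorsal raphe, and neither line difference of miR-150-5p passed the test. The group means ran from low responder dorsal raphe (1129 ± 70.9 CPM, SD, n = 4) through high responder dorsal raphe (902 ± 143 CPM) and low responder amygdala (831 ± 202 CPM) to high responder amygdala (456 ± 209 CPM). Only the middle neighbours, high responder dorsal raphe and low responder amygdala, differed by less than the larger of their SDs.

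miR-21-5p was the most abundant member and had another pattern. In low responders it had 7653, 8360, 7345 and 15618 CPM in amygdala, against 13426, 14719, 19733 and 33931 CPM in dorsal raphe. In high responders it had 12447, 11819.5, 15091 and 12139 CPM in amygdala, against 12457.5, 18002, 12170.5 and 17785 CPM in dorsal raphe. The regions overlapped in both lines. In low responders the overlap came from amygdala replicate 4, which lay above the other amygdala libraries, and the dorsal raphe mean was drawn up by replicate 4.

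The region difference of miR-21-5p was -0.65 ± 0.22 averaged over the lines (1.57 times lower in amygdala; adjusted p = 0.0426, edgeR). It was -1.07 ± 0.32 in low responders (2.10 times lower; adjusted p = 0.0304) and -0.23 ± 0.32 in high responders (adjusted p = 0.637). The difference between the lines in this region difference, the interaction, was 0.84 ± 0.45 (adjusted p = 0.452, edgeR) and did not pass the test. It was 0.40 without the 2 libraries that stood apart and 0.31 to 1.16 with 1 library left out. With RLE factors, another scaling, neither call was kept, at -0.56 averaged over the lines (adjusted p = 0.0732) and -0.93 in low responders (adjusted p = 0.0644, edgeR).

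With 1 library left out and scaling redone, the differences of miR-21-5p were smallest in size without low responder dorsal raphe replicate 4. Without it the averaged difference was -0.43 (adjusted p = 0.0915, edgeR) and that in low responders -0.59 (adjusted p = 0.182, edgeR). Other omissions gave higher adjusted p, up to 0.176 averaged over the lines and 0.23 in low responders (edgeR). With scaling redone, both differences were called without low responder dorsal raphe replicate 1, low responder amygdala replicate 4 or high responder dorsal raphe replicate 1, and in none of the other 13 fits that left out 1 library. Those 13 gave -0.68 to -0.43 averaged over the lines and -1.10 to -0.59 in low responders. With scaling held, the averaged difference was called in 6 of 16 fits (-0.81 to -0.47) and that in low responders in 11 of 16 (-1.39 to -0.71). With replicate 1 of high responder amygdala left out as well, the averaged value was -0.27 (adjusted p = 0.217, edgeR), which is -0.50 relative to the median of all miRNAs tested, against -0.57 with all 16 libraries. In low responders the same omission gave -0.47 (adjusted p = 0.167).

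Between the lines miR-21-5p had opposite signs in the regions, 0.40 ± 0.32 in amygdala (adjusted p = 0.709) and -0.44 ± 0.32 in dorsal raphe (adjusted p = 0.788, edgeR), neither past the test. The second was 0.00 without the 2 libraries that stood apart. In order of group means, low responder dorsal raphe (20452 ± 9389 CPM, SD, n = 4) came before high responder dorsal raphe (15104 ± 3225 CPM), high responder amygdala (12874 ± 1499.7 CPM) and low responder amygdala (9744 ± 3939 CPM). No neighbours in this order differed by more than the larger of their SDs.

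miR-146a-5p, the NF-κB target, was lower in every high responder amygdala library than in any library of the other groups. It had 119, 152, 183 and 182 CPM in high responder amygdala, against 208, 245, 283 and 259.9 CPM in low responder amygdala. In dorsal raphe it had 246, 204, 196 and 238 CPM in high responders, against 188, 281, 304 and 227 CPM in low responders. The margin was small, at 183 CPM in high responder amygdala replicate 3 against 188 CPM in low responder dorsal raphe replicate 1. How many of all miRNAs have 1 group below all others was not counted. The lines did not overlap in amygdala, which held for 8.76% of all miRNAs tested, and they overlapped in dorsal raphe.

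The line difference of miR-146a-5p in amygdala was -0.64 ± 0.25 (1.56 times lower in high responders; adjusted p = 0.41, edgeR) and did not pass the test. DESeq2 gave -0.62 with an adjusted p of 0.0358. With 1 library left out and scaling redone or held, edgeR's value stayed between -0.77 and -0.53 and was called in none of 32 fits. In dorsal raphe the line difference was -0.18 ± 0.25 (adjusted p = 0.967), and the interaction was -0.46 ± 0.35 (adjusted p = 0.672, edgeR). Amygdala over dorsal raphe, miR-146a-5p had -0.47 ± 0.25 in high responders (adjusted p = 0.215, edgeR), where the regions did not overlap, as in 23.5% of all miRNAs tested, and -0.01 ± 0.25 in low responders.

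The near-identical miR-146b-5p had more counts than miR-146a-5p in every library. Counts of miR-146b-5p over those of miR-146a-5p were 17.0 to 38.1 in high responder amygdala and 8.17 to 16.1 in low responder amygdala. In dorsal raphe the ratio was 9.08 to 11.2 in high responders and 8.37 to 54.4 in low responders. In amygdala this ratio, which needs no scaling between libraries, was higher in every high responder library than in any low responder library. The nearest were 17.0 and 16.1, and how often other pairs of miRNAs split so was not counted. The ratio holds the miR-146a-5p counts, so it is no separate result. The 54.4 belonged to low responder dorsal raphe replicate 4, which had 12372 CPM of miR-146b-5p against 2261 to 2547 CPM in the other 3 of its group. The line differences of miR-146b-5p were 0.43 ± 0.44 in amygdala (adjusted p = 0.754, edgeR) and -1.08 ± 0.45 in dorsal raphe (adjusted p = 0.37, edgeR). The part that reads split between these miRNAs have in the lower miR-146a-5p counts was not tested.

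The miR-142 arms, the members most limited to haematopoietic cells, were low in 3 of the 16 libraries. miR-142-3p had 24.5, 28.5, 67.4 and 105 CPM in high responder amygdala, against 49.5, 91.9, 67.3 and 112 CPM in low responder amygdala. In dorsal raphe it had 82.9, 116, 96.5 and 119 CPM in high responders, against 80.9, 109, 125 and 28.8 CPM in low responders. The groups overlapped in each region. Its lowest libraries, high responder amygdala replicates 1 and 2 and low responder dorsal raphe replicate 4, held 46, 77 and 36 counts.

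miR-142-5p followed, with 33.5, 61.0, 115 and 124 CPM in high responder amygdala, against 80.0, 109, 111 and 126 CPM in low responder amygdala. In dorsal raphe it had 88.8, 111, 108 and 109 CPM in high responders, against 114, 123, 129 and 46.5 CPM in low responders. The 2 libraries that stood apart over all miRNAs were its lowest. They are also low in depth, and the part of depth in these levels was not tested.

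Neither arm of miR-142 passed a test. miR-142-3p, amygdala over dorsal raphe, had -0.49 ± 0.32 averaged over the lines (adjusted p = 0.273), -0.87 ± 0.46 in high responders (adjusted p = 0.215) and -0.11 ± 0.46 in low responders (adjusted p = 0.905, edgeR). miR-142-5p had -0.14 ± 0.26, -0.31 ± 0.37 and 0.04 ± 0.37 in the same comparisons (adjusted p = 0.712, 0.574 and 0.956, edgeR). High over low responders, miR-142-3p had -0.50 ± 0.46 in amygdala and 0.26 ± 0.46 in dorsal raphe, and miR-142-5p had -0.35 ± 0.37 and 0.01 ± 0.37. With 1 library left out, miR-142-3p ran from -1.35 to -0.59 for the regions in high responders, from -0.73 to -0.26 for the regions averaged over the lines and from -1.0 to -0.25 for the lines in amygdala, and it was never called. Group means of miR-142-3p ran from 104 ± 16.9 CPM in high responder dorsal raphe to 56.3 ± 37.8 CPM in high responder amygdala, and those of miR-142-5p from 107 ± 19.2 CPM in low responder amygdala to 83.4 ± 43.4 CPM in high responder amygdala (SD, n = 4). No neighbours in either order differed by more than the larger of their SDs.

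**Figure D4:**
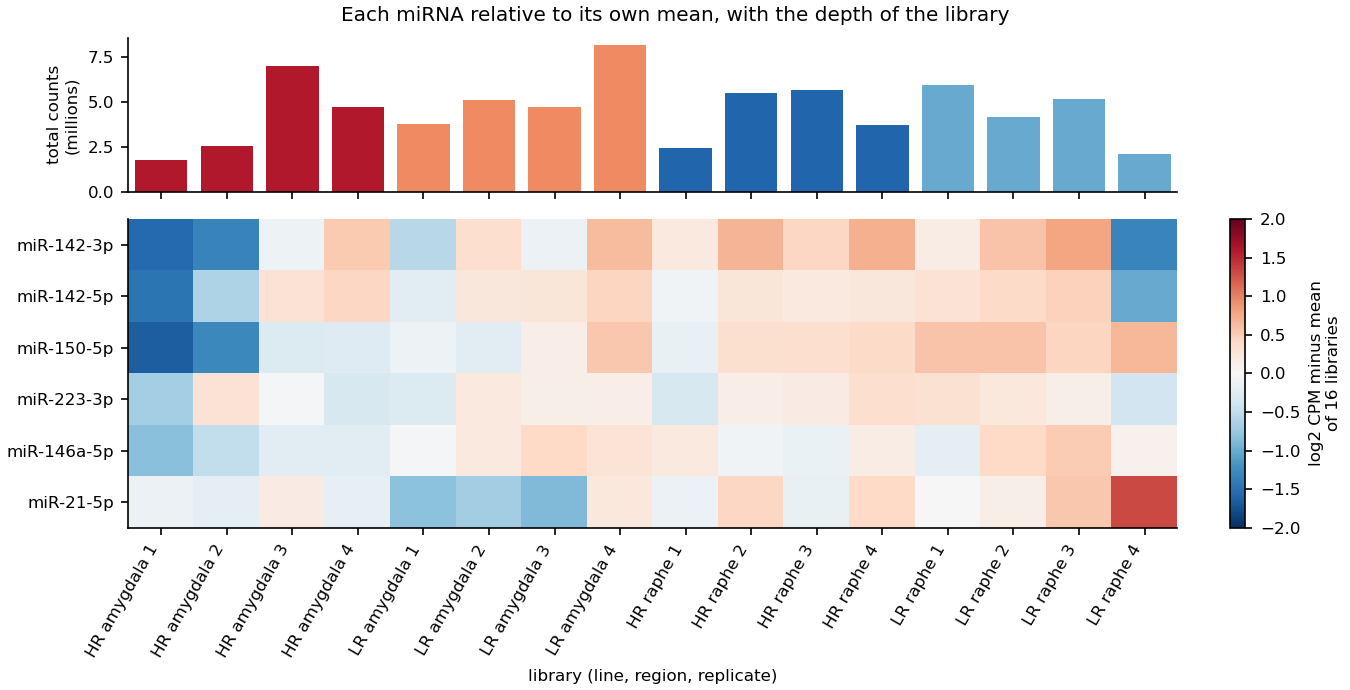
Log2 CPM of each miRNA minus its own mean over the 16 libraries (colour, blue low and red high), with the total counts of each library above (bars, axis in units of 1e6). High responder amygdala replicates 1 and 2 are blue for miR-142-3p, miR-142-5p, miR-150-5p and miR-146a-5p, while low responder dorsal raphe replicate 4 is blue for the miR-142 arms and red for miR-21-5p.

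The share of the 3p arm in all miR-142 counts compares 2 rows of the same library and so needs no scaling. It was 42.2%, 31.8%, 37.1% and 45.7% in high responder amygdala and 38.2%, 45.7%, 37.7% and 47.2% in low responder amygdala. In dorsal raphe it was 48.3%, 51.2%, 47.3% and 52.0% in high responders and 41.5%, 47.0%, 49.3% and 38.3% in low responders. The 95% Wilson interval reached 2.30 points to either side in the deepest library and 9.64 points in low responder dorsal raphe replicate 4, counting error only. All 4 high responder amygdala libraries lay below all 4 high responder dorsal raphe libraries. The nearest of these, at 45.7% and 47.3%, had overlapping intervals (42.6% to 48.9% and 44.5% to 50.1%). This split was not among the 3 differences tested, and how often other pairs of arms split so was not counted.

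The 3p share averaged 40.7 ± 5.36% in amygdala and 46.9 ± 4.72% in dorsal raphe (SD, n = 8 each), a difference of -6.16 points (exact two-sided permutation test, p = 0.0298, adjusted p = 0.0895 over 3 tests). It did not pass the threshold after adjustment. Without low responder dorsal raphe replicate 4 the difference was -7.38 points (adjusted p = 0.0252, exact permutation test), so that library decided on which side of the threshold it fell. High minus low responders, the share differed by 5.69 points in dorsal raphe (exact p = 0.114, adjusted p = 0.171) and by -2.99 points in amygdala (exact p = 0.457). With 1 library left out these differences ran from 3.79 to 7.46 points in dorsal raphe and from -5.17 to -0.527 points in amygdala. The smallest p that 4 against 4 libraries allow is 0.0286.

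**Figure D5:**
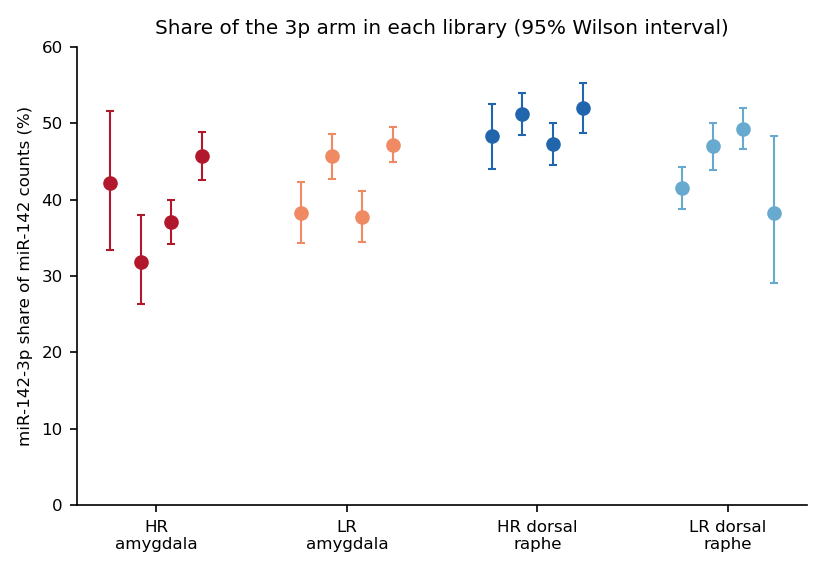
Share of miR-142 counts from the 3p arm in each library (percent, axis from 0), with 95% Wilson intervals for counting error; HR is high responder and LR low responder. High responder amygdala lies between 31.8% and 45.7%, below the 47.3% to 52.0% of high responder dorsal raphe, a split that was not tested. The shallowest libraries have the widest intervals.

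miR-223-3p, the neutrophil-rich member, was the rarest of the 6, with 5 to 45 counts a library. It had 3.19, 6.65, 5.29 and 4.24 CPM in high responder amygdala, against 4.36, 6.25, 5.86 and 5.94 CPM in low responder amygdala. In dorsal raphe it had 4.24, 5.97, 6.10 and 6.93 CPM in high responders, against 6.71, 6.33, 5.87 and 4.00 CPM in low responders. These levels were above the floor in every library, and all groups overlapped. Its log2 fold changes ran from -0.25 ± 0.32 (amygdala over dorsal raphe in high responders) to -0.01 ± 0.31 (high over low responders in dorsal raphe). None of its differences passed the test. The group means were 4.84 CPM in high responder amygdala, 5.60 CPM in low responder amygdala, 5.81 CPM in high responder dorsal raphe and 5.73 CPM in low responder dorsal raphe. In order of level, neighbours differed by less than the larger of their SDs.

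The miRNAs most like each member compared were not members, which is likely for any short list set against 406 miRNAs. Likeness was the root mean square difference of log2 CPM over the 16 libraries, each miRNA centred on its own mean, among 406 miRNAs with a mean of at least 10 CPM. The most like miR-142-3p were miR-19b-3p (0.212) and miR-19a-3p (0.221), and miR-142-5p from the same hairpin came at rank 22 (0.333). For miR-142-5p they were miR-186-5p (0.162) and miR-191a-5p (0.173). miR-150-5p was most like miR-125b-5p and miR-342-3p (0.268 each). miR-146a-5p was most like miR-325-5p (0.229) and let-7a-5p (0.257), and miR-21-5p most like miR-879-5p (0.26) and miR-181b-5p (0.276). The nearest other member came at rank 58 for miR-142-5p (miR-142-3p) and 51 for miR-150-5p (miR-146a-5p). It came at rank 54 for miR-146a-5p (miR-142-5p) and 131 for miR-21-5p (miR-146a-5p). Whether these ranks differ from those within other lists was not tested. miR-21-5p was far from the miR-142 arms, at 0.924 from miR-142-3p and 0.815 from miR-142-5p. All these distances share library depth and scaling, and miR-223-3p was below the minimum level.

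Other immune miRNAs, 11 in all, are the partner arms of the members, miR-146b, miR-342, miR-511 and miR-147. Amygdala over dorsal raphe, 1 of 11 was called lower (14.9% of all miRNAs tested) and none higher (9.39%), and their median was -0.15 (-0.08 for all miRNAs tested). That was miR-146b-3p, partner arm of miR-146b-5p, with 19.2 to 31.5 CPM in amygdala and 27.4 to 45.4 CPM in dorsal raphe (-0.55 ± 0.18, adjusted p = 0.0271, edgeR). The partner arm miR-150-3p had -0.54 ± 0.20 (adjusted p = 0.0607), and miR-342-3p, known from lymphocytes and microglia, had -0.58 ± 0.26 (adjusted p = 0.109, edgeR). miR-511-5p, encoded within the macrophage receptor gene Mrc1, had 2 to 13 counts a library and 1.02 ± 0.50 (adjusted p = 0.142). Between the lines none of the 11 was called, with medians of 0.31 in amygdala and -0.14 in dorsal raphe. Amygdala over dorsal raphe, miR-150-3p had -0.87 ± 0.29 in low and -0.20 ± 0.29 in high responders, against -0.44 and -0.98 for miR-150-5p. Averaged over the lines, miR-21-3p had -0.12 ± 0.32, against -0.65 for miR-21-5p. High over low responders in amygdala, miR-150-3p had 0.22 ± 0.29 and miR-146a-3p 0.47 ± 0.48, against -0.86 and -0.64 for the 5p arms. These partner arms had 5 to 81 counts a library, and none of these values was called.

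miRNAs of other cell types were counted because blood, vessels or adjoining tissue could move with the members. Of the erythrocyte miRNAs, miR-451-5p and the miR-144 arms, none of 3 was called in any comparison, and their summed level was 68.1 to 348 CPM in amygdala and 85.7 to 245 CPM in dorsal raphe. Of the vascular miRNAs, the miR-126a and miR-145 arms and miR-143-3p, none of 5 was called. All 5 had negative values, amygdala over dorsal raphe, with a median of -0.63, and miR-126a-3p of endothelium had -0.63 ± 0.22 (adjusted p = 0.0503, edgeR). Their sum was 33184 to 49876 CPM in amygdala and 43924 to 119347 CPM in dorsal raphe, with the highest value in low responder dorsal raphe replicate 4.

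Averaged over the lines, oligodendrocyte miRNAs were lower in amygdala for 3 of 4, against 14.9% of all miRNAs tested. Among them were miR-338-3p (-1.18 ± 0.30, adjusted p = 0.00762) and miR-219-5p (-0.87 ± 0.26, adjusted p = 0.0225, edgeR). In low responders 2 of these 4 were called lower and in high responders 0, against 10.5% and 6.57% of all miRNAs tested. Their sum was 4954 to 13589 CPM in amygdala and 10264 to 40514 CPM in dorsal raphe. Averaged over the lines, choroid plexus miRNAs were higher in amygdala for 3 of 4, against 9.39% of all miRNAs tested, with miR-204-5p at 1.79 ± 0.35 (adjusted p = 0.00101, edgeR). In high responders 3 of 4 were called higher, where 13.1% of all miRNAs were called in either direction and 6.57% were called lower. In low responders 0 of 4 were, where 14.1% were called in either direction and 10.5% were called lower. In high and low responders miR-204-5p had 2.76 ± 0.51 and 0.82 ± 0.48 (adjusted p = 0.00133 and 0.273, edgeR). High over low responders in amygdala, miR-204-5p had 1.51 ± 0.49 (adjusted p = 0.288, edgeR). The choroid plexus sums were 8269 to 17107 CPM in high responder amygdala, 999 to 9230 CPM in low responder amygdala and 1535 to 3827 CPM in dorsal raphe. Of 6 neuronal miRNAs, only miR-128-3p was called averaged over the lines, higher in amygdala (2.23 ± 0.22, adjusted p = 1.08e-06, edgeR). Averaged over the lines, 5 of these 6 were positive, with a median of 0.38 (-0.08 for all miRNAs tested). miR-137-3p had 0.92 ± 0.34, miR-129-5p 0.39 ± 0.32 and miR-138-5p 0.37 ± 0.23 (adjusted p = 0.0537, 0.371 and 0.253, edgeR). In high responders 4 of 6 were positive, with miR-129-5p at 1.27 ± 0.46 (adjusted p = 0.0844, edgeR). The neuronal miR-124-3p had -0.47 ± 0.30 averaged over the lines (adjusted p = 0.256) and -0.92 ± 0.43 in high responders (adjusted p = 0.161, edgeR). miR-124-5p had 0.08 ± 0.28 and -0.60 ± 0.39. None of these lists held a miRNA at 0 over a whole group, and none had a called miRNA between the lines. The neuronal sums did not overlap between the regions, and those of the other lists did. No sum was tested, and the part of these cell types in the region differences of miR-150-5p and miR-21-5p was not tested.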

How the data were processed

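Whole-number read counts per mature miRNA, 1 table of 722 miRNAs per library, were deposited by the authors and used unchanged. Per the labels' protocols, a miRNeasy kit gave the RNA, and small RNA libraries were size-selected on a Pippin instrument. Tools in the submitters' processing notes are cutadapt 1.3.1, Bowtie2 and bedtools 2.14.2; the sources used here give no build, annotation or handling of multiply matching reads. With edgeR 4.0.16 in R 4.3.3, filterByExpr (minimum count 10, minimum total 15) kept 639 miRNAs and dropped 83. The quasi-likelihood test with robust moderation was fitted to 16 libraries with a mean per group and TMM factors (0.596 in low responder dorsal raphe replicate 4, 0.870 to 1.27 in the others), and adjusted p is Benjamini-Hochberg over the 639. Log2 CPM used a prior count of 2, and the standard error was the log2 fold change over the square root of F. The 3p share was tested with an exact permutation test in scipy 1.17.1. The code was tested on simulated data. No library was a copy of another (lowest chi-square per degree of freedom 55.4 over 120 pairs). Same-numbered high and low responder amygdala libraries deviated together (correlations 0.688, 0.29, 0.212 and 0.509), which was read as pairing by number; the labels do not say what they stand for. Named are all members, up to 4 miRNAs of lowest p per list and the 2 most like miRNAs of each member; members and lists were chosen with earlier results of these data known. Alternatives were DESeq2 1.42.0, library totals, RLE factors, no filter, a replicate block, omitted libraries and, added after seeing the data, another comparison library for TMM and held scaling.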

Additional observations from a re-analysis of the deposited data

Results flagged for a closer look

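In 3 of 28 groups of 4 libraries tested for a sample far from the rest (Dixon's 95% criterion), 1 library stood apart; chance gives about 1 in 20. High responder dorsal raphe replicate 1 was low for miR-142-5p, at 88.8 CPM against 107.6 to 110.6 CPM in the other 3 libraries, and for miR-150-5p, at 689 CPM against 961 to 993 CPM. Low responder amygdala replicate 4 was high for miR-21-5p, at 15618 CPM against 7345 to 8360 CPM in the other 3. These libraries had the lowest total of its group, 2419326 counts, and the highest, 8134915 counts. The part of depth in these values was not tested.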

How the results depend on the processing

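Of the log2 fold changes of the 6 members in 6 comparisons, 214 kept their direction and their side of the threshold under alternatives other than leaving out 1 library, 27 changed sign, 10 lost a call and 1 gained one. With 1 library left out and scaling redone, 469 stayed, 59 changed sign and 48 lost a call; with the scaling held, 528, 19 and 29 did. TMM set all 16 libraries against low responder amygdala replicate 2, but against high responder amygdala replicate 3 in 8 of the 16 fits that left out 1 library. That comparison library and the held scaling were tried after seeing the data. Values that changed sign were mostly close to 0 and never past the threshold. The cause of a lost call was not tested.

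Averaged over the lines, 1 member was called with RLE factors (miR-150-5p), 1 with TMM against high responder amygdala replicate 3 (miR-150-5p) and 0 without both libraries that stood apart. In low responders 0 members were called with RLE factors, with that other TMM comparison library, without both libraries and with the replicate block. In high responders 0 were called without the filter on low counts and 0 without both libraries. DESeq2 called 1 member between the lines in amygdala, miR-146a-5p. With 1 library left out, with scaling redone or held, the calls numbered 0 to 2 averaged over the lines, 0 to 1 in low responders and 0 to 1 in high responders.

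Line differences in dorsal raphe changed sign for miR-223-3p with DESeq2 (0.07), library totals (0.15), RLE factors (0.10), the other TMM comparison library (0.09) and the replicate block (0.11). That of miR-146a-5p did with library totals (0.05). Without both libraries that stood apart it was -0.14 for miR-142-5p and 0.00 for miR-21-5p. Leaving out 1 library gave -0.02 to 0.55 for miR-142-3p, -0.23 to 0.19 for miR-142-5p, -0.11 to 0.13 for miR-223-3p and -0.59 to 0.05 for miR-21-5p. The interaction of miR-142-5p was 0.03 without both libraries.

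Region differences in low responders changed sign with DESeq2, at 0.01 for miR-142-3p, 0.02 for miR-223-3p and 0.11 for miR-146a-5p. With RLE factors the 3 were 0.00, 0.05 and 0.11, and with the other TMM comparison library 0.03, 0.09 and 0.16. Library totals gave 0.02 for miR-223-3p and 0.12 for miR-146a-5p. Without both libraries these were 0.06 and 0.20. Leaving out 1 library gave -0.38 to 0.23 for miR-142-3p, -0.19 to 0.26 for miR-142-5p, -0.17 to 0.13 for miR-223-3p and -0.12 to 0.20 for miR-146a-5p. Averaged over the lines, the absence of both libraries gave 0.06 for miR-142-5p and 0.04 for miR-223-3p, and leaving out 1 gave -0.26 to 0.11 and -0.24 to 0.03. In high responders the absence of both gave 0.07 for miR-142-5p and 0.02 for miR-223-3p.

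The replicate block, with paired numbers in amygdala, changed no call there. In every other pair of groups at least 1 same-numbered pair of libraries had a correlation of 0.1 or less, so those were not read as paired. For high responder dorsal raphe and amygdala the correlations were 0.675, -0.275, 0.353 and 0.531. Such correlations cannot tell whether both regions came from the same animals. With the block the low responder region difference of miR-21-5p was -1.04 (adjusted p = 0.0871, edgeR), and that of miR-146a-5p was 0.01. The difference in 3p share was -6.16 points with the block (exact permutation test, adjusted p = 0.211), -7.59 points without both libraries (adjusted p = 0.042, exact permutation test) and -7.38 to -4.89 points with 1 library left out. The median log2 fold change of all miRNAs also moved, by 0.37 for the regions in low responders without both libraries and by -0.33 in the interaction with library totals. Counts were fewest for miR-223-3p, from 5 a library, and counting intervals of the 3p share were widest in the shallowest libraries.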
